A study of Mus musculus with 9 samples.

Results

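The transcripts described here are those counted for 10 protein-coding genes of the mitochondrial genome. ND1, ND2, ND4 and ND4L belong to respiratory complex I and CYTB to complex III. COX1, COX2 and COX3 belong to complex IV, and ATP6 and ATP8 to the ATP synthase, complex V. All 10 were chosen by their symbols, as 10 of the 23317 rows of the count table, and all 10 passed the filter on low counts. Of the 13 protein-coding genes annotated on the mouse mitochondrial genome, all 13 have a row, and the other 3 (ND3, ND5 and ND6) are used for comparison. RNA came from cells labelled as haematopoietic stem cells (HSCs), the self-renewing marrow cells that give rise to every blood lineage, of wild-type mice. The series title places the study around sphingosine metabolism and the ageing of these cells. There were 3 groups of 3 libraries: yHSC (young), oHSC (old) and oHSC_ABC (old, with ABC294640, which the submitters name as an inhibitor of sphingosine kinase 2, the enzyme that phosphorylates sphingosine). The protocol gives ages of 2 to 4 months or 20 to 24 months, assigned to young and old by their wording, and 1500 sorted cells from femora and tibiae for each library. The sources used here do not give the sort markers, nor how the inhibitor was given, at what dose or for how long. Whether the 3 libraries of a group are from different mice is not stated, and p-values here reflect the spread among these samples alone, which may be technical.

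The mitochondrial genome is a small circle, present in many copies per cell, whose protein-coding genes all specify subunits of the oxidative phosphorylation complexes. It is transcribed into long precursors that are cut at the transfer RNAs lying between the genes, so that the messengers are released together and their levels then depend on how each is processed, given a poly(A) tail and degraded. ND6 is the exception among the protein-coding genes in being read from the opposite strand. HSCs at rest are known for low respiration and for relying largely on glycolysis.

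Among the 10 transcripts are 2 pairs whose reading frames overlap and are carried on 1 messenger. ATP6 and COX3 also share 1 base on the same strand, at the end of ATP6. ATP8 is followed by ATP6, whose reading frame starts within it. ND4L is followed in the same way by ND4. ATP8 and ND4L are shown whole because these 2 were called higher in treated than in untreated old HSCs, as reported below. They are also the shortest of the 10 genes. Sequences are from the GENCODE mouse release 21 transcripts (GRCm38), on the plus strand of the mitochondrial chromosome, and the capitals mark the bases shared with the next reading frame.
mt-Atp8, chrM:7766-7969: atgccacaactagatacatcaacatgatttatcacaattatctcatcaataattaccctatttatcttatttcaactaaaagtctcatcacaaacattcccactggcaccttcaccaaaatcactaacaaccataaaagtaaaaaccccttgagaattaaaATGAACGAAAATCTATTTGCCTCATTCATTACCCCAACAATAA
mt-Nd4l, chrM:9877-10173: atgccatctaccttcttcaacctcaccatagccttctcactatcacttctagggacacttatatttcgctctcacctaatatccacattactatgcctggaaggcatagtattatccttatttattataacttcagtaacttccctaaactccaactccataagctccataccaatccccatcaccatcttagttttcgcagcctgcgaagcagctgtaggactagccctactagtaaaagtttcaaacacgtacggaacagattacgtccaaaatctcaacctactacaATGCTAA
The overlap covers 43 of the 204 bases of ATP8 and 7 of the 297 bases of ND4L, and each stretch in capitals opens with ATG, the start codon of the next frame. The sources used here do not say how reads over such shared bases were assigned or whether strand was used, and a transposase library does not mark strand. Reads within the shared bases fit both frames, while reads outside them fall in 1 gene by position. A read can also reach from 1 gene of such a messenger into the next.

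The libraries were made from polyadenylated RNA, so the 3′ ends of these messengers are shown next. Each line gives the last 24 bases of the gene, with the stop codon, or the part of it that the genome encodes, in capitals.
mt-Nd1, chrM:3684-3707: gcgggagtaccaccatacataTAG
mt-Nd2, chrM:4928-4951: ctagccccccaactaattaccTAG
mt-Co1, chrM:6849-6872: ccaacctatgtaaaagtaaaaTAA
mt-Co2, chrM:7673-7696: aactgatctgcttcaataattTAA
mt-Atp6, chrM:8584-8607: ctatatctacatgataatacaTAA
mt-Co3, chrM:9367-9390: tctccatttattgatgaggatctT
mt-Nd4, chrM:11521-11544: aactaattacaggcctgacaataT
mt-Cytb, chrM:15265-15288: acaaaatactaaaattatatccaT
COX3, ND4 and CYTB end in a lone T in the annotation, and in these messengers the poly(A) tail supplies the rest of the stop codon. ND1, ND2, COX1, COX2 and ATP6 carry a complete TAG or TAA in the annotation. For ND1 and ND2 the transfer RNA gene that follows on the same strand starts at positions 3706 and 4950, within the stop codon. Cut at these positions, their messengers would end in a T as well. Where the cut falls was not tested. The frames also differ at their starts, since ND1 opens with GTG and ND2 with ATA while the other 8 open with ATG. The genes run along the genome in the order ND1, ND2, COX1, COX2, ATP8, ATP6, COX3, ND4L, ND4 and CYTB.

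Copies of mitochondrial DNA in the nuclear genome can take reads from these genes. Of the annotated nuclear genes, 7 pseudogenes shared at least 50% of their 31-base words with mitochondrial genes, and all 7 lie on chromosome 1 between positions 24611535 and 24616197 (GRCm38). Their closest matches among the 10 transcripts were Gm10222 for ND4L, Gm28439 for ND4, Gm10925 for ATP6, Gm28437 for COX3, Gm28661 for COX2 and Gm29216 for COX1. The share of a gene's words found elsewhere was 100% for COX2, 99.87% for COX3, 99.54% for ATP6, 98.88% for ND4L, 63.89% for COX1 and 62.76% for ND4. It was 13.49% for ND2, 7.47% for ATP8, 6.55% for CYTB and 0% for ND1, so the genes whose differences passed a test in any comparison include both kinds. None of the 7 pseudogenes has a row in the table used here, and the sources used here do not say how reads that fit more than 1 place were counted. Copies outside annotated genes were not searched.

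Library totals ran from 16663445 to 23254115 counts, and the 10 transcripts held between 2514 and 357169 counts each in a library, the lowest being those of ND4L. Of the markers of the labelled cell type, 9 of 10 averaged at least 1 CPM (read counts scaled to library size, with TMM scaling), with Fgd5 below it, and their summed level was 417 to 431 CPM in young, 359 to 367 in old and 369 to 378 in treated old libraries. The summed level of 8 granulocyte genes, such as Mpo and Elane, was 30307 to 34158 CPM in young, 46818 to 49693 in old and 46452 to 47440 in treated old libraries. That of 7 erythroid genes was 812 to 855, 372 to 375 and 417 to 419 CPM in the same order, most of it Car1 (726, 313 and 357 CPM on average). The 6 megakaryocyte genes summed to 451 to 492, 225 to 253 and 292 to 308 CPM, the 6 macrophage genes to 122 to 135, 108 to 115 and 107 to 113, and the 6 stromal and endothelial genes to 38.0 to 44.1, 29.7 to 36.7 and 33.2 to 34.0. Some lists held genes going against their sum in old against young. Of the erythroid genes 6 were lower and Hbb-bt higher (0.57, adjusted p = 0.000878). Of the macrophage genes 4 were lower and Vcam1 higher (0.43, adjusted p = 5.68e-05). Of the HSC markers 5 were lower, and Hlf and Hoxa9 were higher (0.21 and 0.22, adjusted p = 0.0444 and 0.00991). Over all genes tested, 19.8% were lower and 19.6% higher. The 6 T and NK cell genes summed to 1330 to 1484, 1734 to 1891 and 1899 to 2065 CPM, nearly all of it Nkg7 (1380, 1824 and 1975 CPM on average), while Cd8a was lower in old by 1.02 on the log2 scale (adjusted p = 0.000235) and Cd3d and Klrb1c gave -0.33 and -0.53 without passing. Of the B and plasma cell genes, Jchain averaged 30.1, 67.4 and 55.6 CPM in young, old and treated old, Ighm 95.6, 60.6 and 59.4, and Cd79b 65.03, 60.8 and 63.3. Jchain was higher in old than in young (1.17, adjusted p = 3.43e-12) and lower in treated than in untreated old (-0.28, adjusted p = 0.0163), and Ighm was lower in old (-0.66, adjusted p = 9.66e-09). Ms4a1 of B cells, Cd3e and Trbc2 of T cells, and Cdh5 and Col1a1 of endothelium and stroma were below 1 CPM in every library. The part of such differences in cell makeup in the results below was not tested, and in these bulk samples fewer cells of a type and less RNA per cell cannot be told apart.

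Per length of gene, the 10 transcripts stood at widely different levels, in the same broad order in every group. COX3 averaged 15126 CPM per kilobase over the 9 libraries and ATP6 14621, and the ranges of these 2 over libraries overlapped. COX1 followed at 10480, COX2 at 8655, CYTB at 6082 and ND1 at 3554 CPM per kilobase. ATP8 stood at 2372 CPM per kilobase, well under the ATP6 of the same messenger, and ND4L at 539 stood under the ND4 of its own messenger at 893. ND2 was the lowest of the 10 at 450 CPM per kilobase, with a range of 394 to 506 that overlapped the range of ND4L, 439 to 614. Neighbours in the order from COX1 down to ND4 did not overlap (the ranges were 9578 to 10978 for COX1, 8344 to 8980 for COX2, 5626 to 6747 for CYTB, 3393 to 3687 for ND1, 1845 to 2778 for ATP8 and 828 to 1004 for ND4). Of the genes used for comparison, ND3 averaged 832, ND5 524 and ND6 408 CPM per kilobase.

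**Figure D1:**
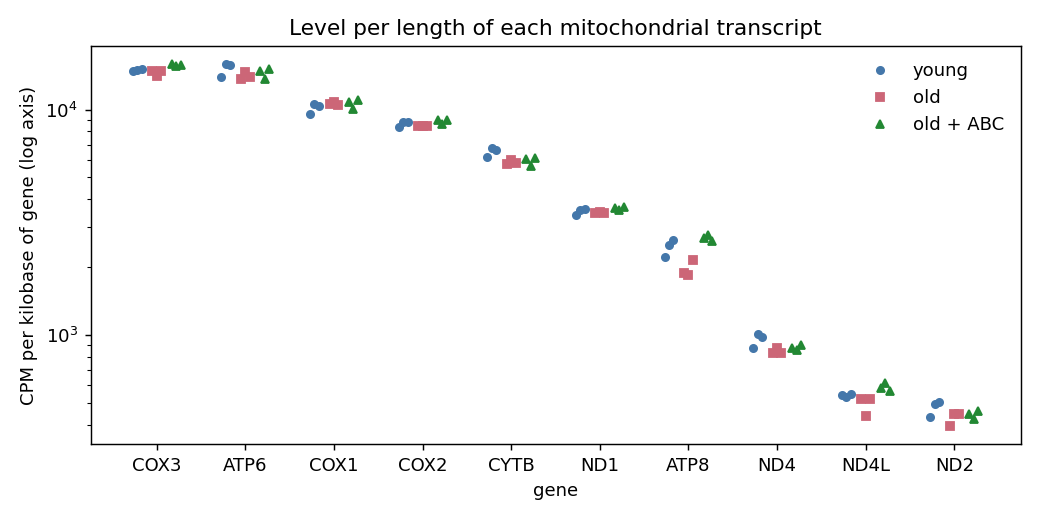
Level per length (CPM per kilobase of gene, log axis) of the 10 transcripts in each of the 9 libraries, ordered by level. COX3 and ATP6 are highest, at 15126 and 14621 CPM per kilobase on average, and ND4L and ND2 lowest, at 539 and 450, in all 3 groups. Values are counts divided by gene length, not numbers of messengers.

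Within a group the replicates lay close together. The highest coefficient of variation among 3 libraries was 9.5% (ND4L in old) and the lowest was 0.474% (COX2 in old). Across all 9 libraries, the highest level of a transcript was 1.505 times the lowest for ATP8, 1.399 times for ND4L and 1.286 times for ND2, but 1.076 times for COX2 and 1.086 times for ND1. Young replicate 1 was the lowest young library for 9 of the 10 transcripts, the exception being ND4L. The mean log2 CPM of the 10 was 11.27 in that library against 11.39 in both other young libraries, 11.22 to 11.27 in old and 11.33 to 11.37 in treated old libraries.

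**Figure D2:**
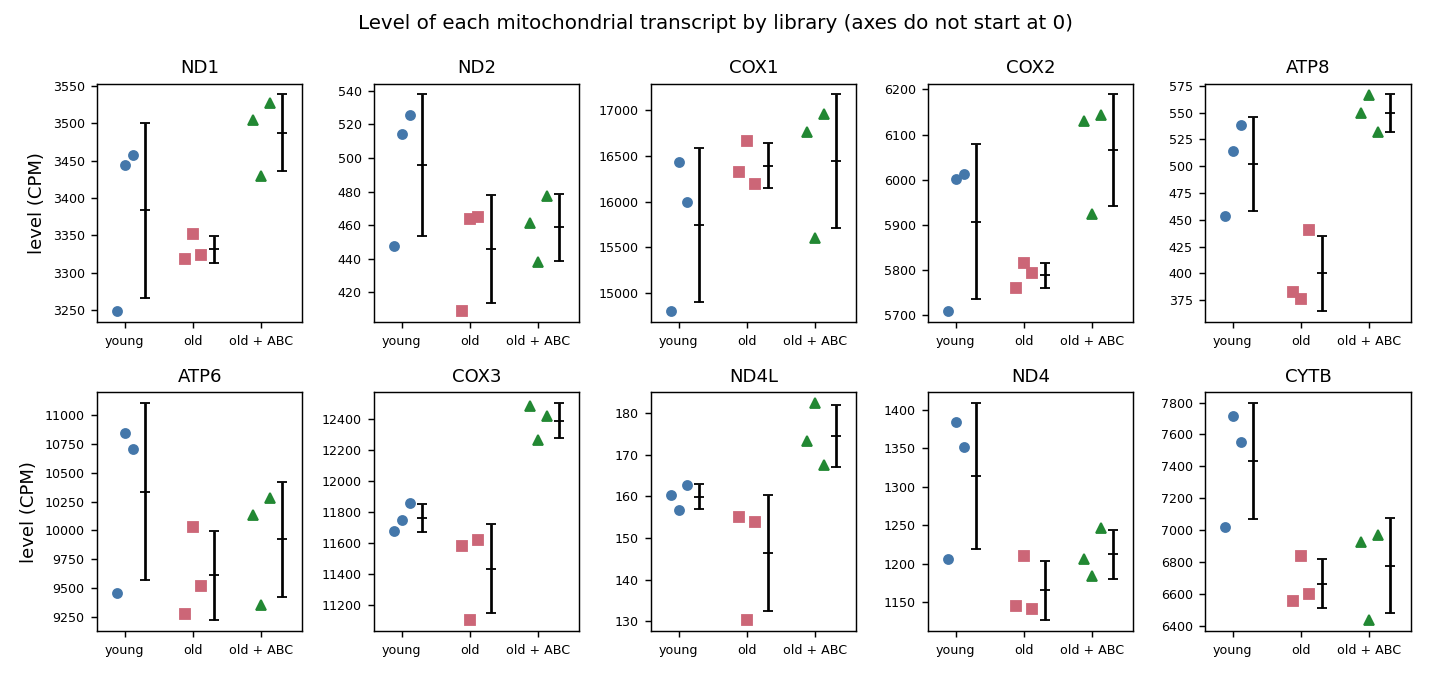
Level in CPM of each of the 10 transcripts in each library (points), with the mean and SD of the 3 libraries of a group beside them; the vertical axes are linear, differ between panels and do not start at 0. ATP8 shows old libraries at 377 to 441 CPM under all young (454 to 539) and treated old libraries (532 to 567), while COX1 and ND1 overlap between young and old.

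Old HSCs had lower levels of 4 of the 10 mitochondrial transcripts than young HSCs: ATP8, CYTB, ND4 and ND2. None of the 10 was higher in old. The levels of these 4 in old were 0.796 to 0.899 times those in young, and the other 6 differences did not pass the test. Over all 14227 genes tested, 19.8% were called lower and 19.6% higher, 39.4% in all, in this comparison (edgeR's quasi-likelihood test, Benjamini-Hochberg adjusted p under 0.05). Among the 1345 genes at or above the level of the lowest of the 10 transcripts, 17.8% were lower and 42.5% higher. The median log2 difference of the 10 was -0.12, against -0.03 over all genes tested. The count, and with a GC trend over all genes removed the direction, changed with the settings given after the single transcripts.

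Levels counted for 2 of the 10 genes, ATP8 and ND4L, were higher in treated than in untreated old HSCs, and none was lower. ATP6 and ND4, carried on the same 2 messengers, did not pass (0.05 and 0.06, adjusted p = 0.874 and 0.82). A higher level of either whole messenger is therefore not shown. Far fewer genes differed in this comparison, with 1.2% of the genes tested called, 0.773% higher and 0.429% lower. Among the 1404 genes at or above the level of the lowest of the 10 transcripts, 5.13% were higher and 1.07% lower. All 10 log2 differences were above 0, with a median of 0.06 against 0.0011 over all genes tested, and 8 of them did not pass the test. Both calls were lost when the length trend of genes at 10 CPM or more was removed. The 10 share libraries, scaling and in part messengers, so their common sign is not a count of independent results. Treated old HSCs had lower CYTB than young HSCs and did not differ past the threshold in the other 9, where 37.7% of the genes tested were called, 18.5% lower and 19.1% higher. The 3 comparisons share libraries, the old ones entering the first and the second, so a low old value enters both with opposite sign, and their values are given side by side only.

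**Figure D3:**
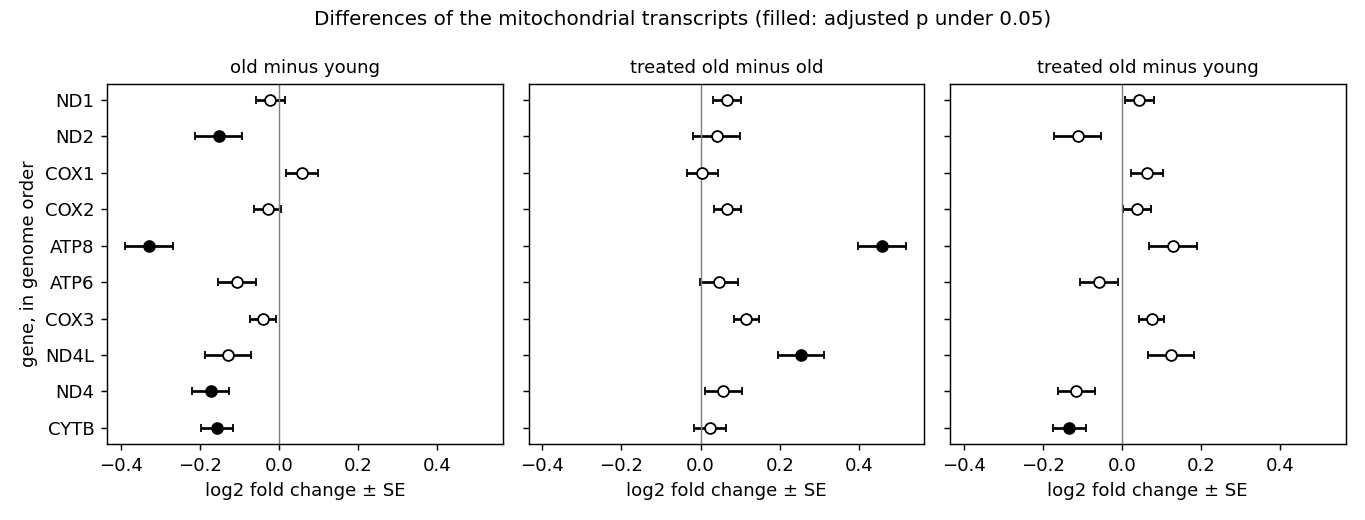
Log2 fold change with its standard error for each of the 10 transcripts, in genome order, in the 3 comparisons; filled points have an adjusted p under 0.05. Filled points are ND2, ATP8, ND4 and CYTB below 0 for old against young, ATP8 and ND4L above 0 for treated old against old, and CYTB below 0 for treated old against young.

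ATP8 encodes a small subunit of the membrane part of the ATP synthase, needed for its assembly and stability. Its level was 454, 514 and 539 CPM in young, 383, 377 and 441 CPM in old and 550, 567 and 532 CPM in treated old libraries. All old libraries lay below all young and all treated libraries, and the young and treated ranges overlapped. Libraries that do not overlap with the first group lower were found for 25.6% of all genes tested in old against young (22.8% with it higher), and with the first group higher for 8.34% in treated against untreated old (7.12% with it lower). Old was lower than young by a log2 difference of -0.33 ± 0.061 (SE), with an adjusted p of 0.000249. Treated was higher than untreated old by 0.46 ± 0.061, a fold of 1.37, with an adjusted p of 0.000403. Treated against young gave 0.13 ± 0.061 and an adjusted p of 0.0989.

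ATP6 encodes the subunit that forms the proton path of the ATP synthase beside its rotating ring. It stood at 9456, 10849 and 10710 CPM in young, 9275, 10034 and 9518 CPM in old and 10133, 9350 and 10284 CPM in treated old libraries. The groups overlapped in all comparisons. The log2 difference was -0.11 ± 0.048 for old against young (adjusted p = 0.088) and 0.05 ± 0.048 for treated against untreated old (adjusted p = 0.874). Without young replicate 1 the old against young difference was -0.16 with an adjusted p of 0.00163. No other leave-one-out fit passed, and without young replicate 2 the difference was -0.058 (adjusted p = 0.404).

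Since ATP8 and ATP6 are read from 1 messenger, their ratio was computed in each library, a measure chosen after the values were seen and therefore given without a test. There were 4.80, 4.74 and 5.03 ATP8 counts per 100 ATP6 counts in young, 4.13, 3.75 and 4.63 in old, and 5.43, 6.06 and 5.17 in treated old libraries. The 3 groups did not overlap, with old lowest and treated old highest. The same ratio of ND4L to ND4, the other shared messenger, was 13.3, 11.3 and 12.0 per 100 in young, 13.5, 10.8 and 13.5 in old, and 14.4, 15.4 and 13.4 in treated old libraries. There the treated libraries lay above the young and overlapped with the old, and young and old overlapped.

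**Figure D4:**
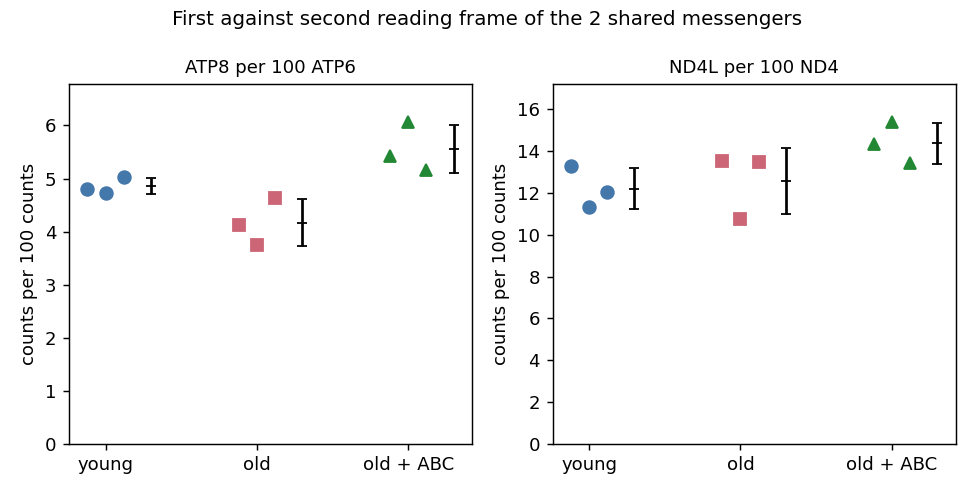
Counts of ATP8 per 100 counts of ATP6 (left) and of ND4L per 100 of ND4 (right) in each library (points), with the mean and SD of each group; axes start at 0. For ATP8 the old libraries (3.75 to 4.63) lie below the young (4.74 to 5.03) and these below the treated old (5.17 to 6.06), while for ND4L young and old overlap.

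ND4L encodes a small membrane subunit of complex I. Its level was 160, 157 and 163 CPM in young, 155, 130 and 154 CPM in old and 173, 182 and 168 CPM in treated old libraries. Treated libraries lay above all others, old ones lay below all young ones, and old replicate 2 was the lowest of the 9. The log2 difference of treated against untreated old was 0.25 ± 0.058, a fold of 1.19 (adjusted p = 0.0333). This call was lost when some single libraries were left out. Without old replicate 2 the difference was 0.17 (adjusted p = 0.22) and without treated replicate 2 it was 0.22 (adjusted p = 0.258). Without treated replicate 1 it was still 0.25, and only the adjusted p moved (0.175). Over all genes tested, leaving out 1 library gave 17 to 121 called higher, against 110 with all 9 libraries. Old against young gave -0.13 ± 0.058 (adjusted p = 0.0833), and treated against young 0.12 ± 0.058 (adjusted p = 0.0958).

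ATP8 and ND4L, at 204 and 297 bases, are the shortest of the 10 genes, and short nuclear transcripts at 10 CPM or more moved with the same groups. Among the 147 nuclear genes at 10 CPM or more whose longest transcript is under 700 bases, the median log2 difference was -0.16 for old against young, with 49.7% called lower and 8.84% higher. For treated against untreated old it was 0.15, with 25.9% called higher and 0% lower. The 7712 longer genes at 10 CPM or more had medians of 0.07 and 0.0025. Over all 349 short genes tested, at any level, the old against young median was -0.096 with 30.4% lower and 25.5% higher, and the 170 of 300 to 500 bases had a median of 0.17 with 42.4% higher. For treated against untreated old, 11.2% of the 349 were higher and 4.58% lower, with a median of 0.15. No nuclear gene at 10 CPM or more was as short as ATP8 or ND4L, so for these 2 the trend is read from longer genes. After removal of the length trend fitted over genes at 10 CPM or more, an alternative chosen after seeing the data, neither was called in treated against untreated old: ATP8 differed by 0.22 (adjusted p = 0.115) and ND4L by 0.011 (adjusted p = 0.977). ATP8 stayed lower in old than in young, by -0.16 (adjusted p = 0.0418), less than the -0.33 above. With the trend fitted over all genes tested, the treated differences were 0.47 and 0.26 and both passed. The old against young differences were then -1.05 for ATP8 (adjusted p = 3.46e-13) and -0.85 for ND4L (adjusted p = 5.89e-13).

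**Figure D5:**
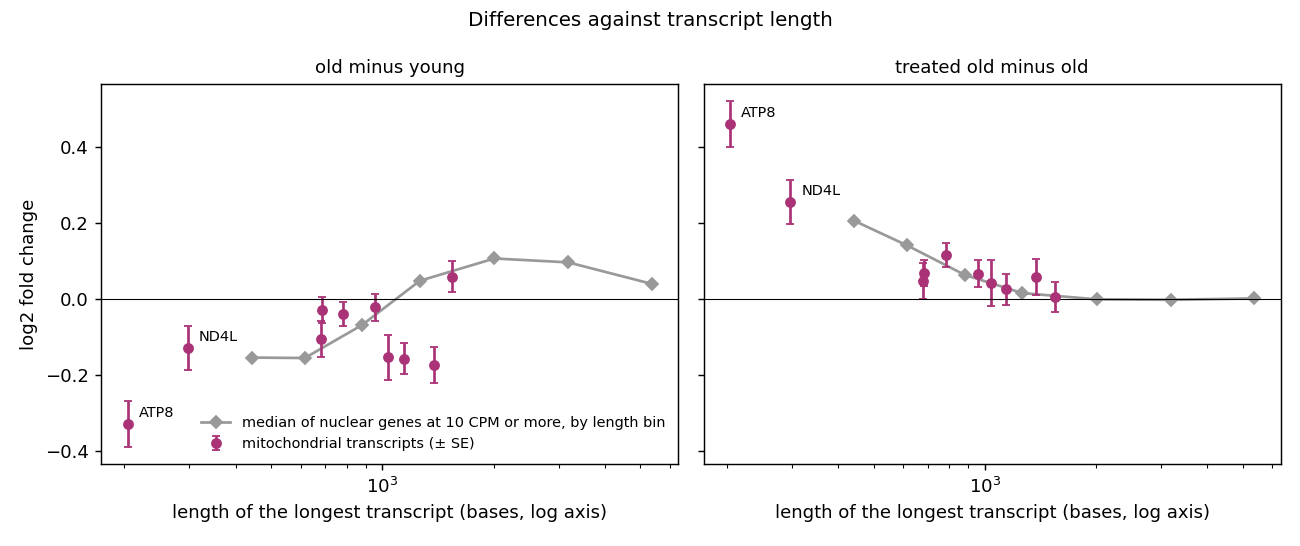
Log2 fold change against the length of the longest transcript (bases, log axis) for the 10 mitochondrial transcripts (circles, ± SE) and as the median of nuclear genes at 10 CPM or more in bins of length (grey), for old against young (left) and treated old against old (right). The shortest nuclear bin has a median of -0.15 on the left and 0.20 on the right, and ATP8 lies beyond it in both, at -0.33 and 0.46.

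ND4 encodes a large proton-pumping subunit of complex I. It measured 1207, 1384 and 1352 CPM in young, 1146, 1210 and 1141 CPM in old and 1207, 1184 and 1247 CPM in treated old libraries. Old replicate 2 and young replicate 1 met at the boundary between those groups, which overlapped. Old was lower than young by a log2 difference of -0.17 ± 0.047 (adjusted p = 0.00658). The call was lost without young replicate 2 (-0.12, adjusted p = 0.0701), young replicate 3 (-0.14, adjusted p = 0.0562) or old replicate 3 (-0.14, adjusted p = 0.0635). Treated against untreated old gave 0.06 ± 0.047 (adjusted p = 0.82), so the pair ND4L and ND4 had unequal values in that comparison, though the difference between them was not tested.

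ND2, another proton-pumping subunit of complex I, stood at 448, 514 and 526 CPM in young, 409, 464 and 465 CPM in old and 461, 438 and 477 CPM in treated old libraries. Young replicate 1 lay within the range of the old libraries. The log2 difference of old against young was -0.15 ± 0.059, with an adjusted p of 0.0452 just under the threshold. The call was lost without young replicate 2 (-0.12), young replicate 3 (-0.098), old replicate 1 (-0.088) or old replicate 3 (-0.16), with adjusted p between 0.0724 and 0.281. It was also lost with RLE size factors, scaling without mitochondrial genes, no filter, truncated values, the 2 groups alone, DESeq2 and either length trend removed, so that ND2 was called lower in 6 of 19 alternatives. It was called higher in 1, with the GC trend over all genes removed (0.31, adjusted p = 1.54e-06). Treated against untreated old gave 0.04 ± 0.059 (adjusted p = 0.924).

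ND1, the complex I subunit next to the quinone site, had 3248, 3444 and 3458 CPM in young, 3318, 3352 and 3323 CPM in old and 3505, 3430 and 3528 CPM in treated old libraries. Old libraries fell inside the young range, and treated libraries lay above the old. The log2 differences were -0.02 ± 0.036 for old against young (adjusted p = 0.655), with a 95% interval from -0.09 to 0.05, and 0.07 ± 0.036 for treated against untreated old (adjusted p = 0.641). It shared no words with any other annotated gene, unlike the other 9.

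The 3 complex I genes outside the set did not pass the test in any comparison. ND3 went from 307 ± 37.3 CPM in young (SD, n = 3) to 279 ± 25.4 in old and 282 ± 11.5 in treated old libraries. ND5 was at 985 ± 83.0, 952 ± 35.03 and 930 ± 30.5 CPM. ND6, from the other strand, was at 216 ± 25.3, 205 ± 15.2 and 215 ± 1.19 CPM. ND3, at 348 bases, is also short, and its log2 difference of treated against untreated old was 0.02 ± 0.072, beside 0.46 for ATP8 and 0.25 for ND4L.

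CYTB encodes cytochrome b, the mitochondrially encoded subunit of complex III. Its level was 7021, 7718 and 7555 CPM in young, 6553, 6839 and 6599 CPM in old and 6926, 6436 and 6970 CPM in treated old libraries. All 6 old and treated libraries lay below the 3 young ones, and old and treated overlapped. In treated old against young, 24.7% of all genes tested had treated libraries all below and 23.7% all above the young. Old was lower than young by -0.16 ± 0.041 on the log2 scale (adjusted p = 0.00457), with leave-one-out fits keeping the call. Treated old was lower than young by -0.13 ± 0.041 (adjusted p = 0.0144), a call lost without young replicate 2 (-0.10, adjusted p = 0.0952), young replicate 3 (-0.12, adjusted p = 0.0748) or treated replicate 2 (-0.08, adjusted p = 0.167). Treated against untreated old gave 0.02 ± 0.041 (adjusted p = 0.938).

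COX1, the catalytic subunit of complex IV, was the only one of the 10 with a log2 difference above 0 in old against young. It measured 14798, 16437 and 15990 CPM in young, 16319, 16666 and 16190 CPM in old and 16760, 15605 and 16960 CPM in treated old libraries. The old libraries lay within or just above the young range. The difference was 0.06 ± 0.040 (adjusted p = 0.259), and treated against untreated old gave 0.0044 ± 0.040 (adjusted p = 0.991), whose sign changed with the scaling used.

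COX2, which carries the copper centre that takes electrons from cytochrome c, was the steadiest of the 10. It stood at 5708, 6001 and 6012 CPM in young, 5759, 5814 and 5792 CPM in old and 6130, 5923 and 6143 CPM in treated old libraries. Old libraries lay inside the young range and below the treated ones. The log2 difference was -0.03 ± 0.034 for old against young (adjusted p = 0.528) and 0.07 ± 0.034 for treated against untreated old (adjusted p = 0.61).

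COX3, the remaining mitochondrially encoded core subunit of complex IV, had 11675, 11746 and 11853 CPM in young, 11576, 11101 and 11616 CPM in old and 12482, 12262 and 12415 CPM in treated old libraries. The 3 groups did not overlap, with old lowest and treated highest. The differences were small: -0.04 ± 0.032 for old against young (adjusted p = 0.327) and 0.12 ± 0.032 for treated against untreated old (adjusted p = 0.0974). Treated against young gave 0.08 ± 0.032 (adjusted p = 0.0699). Libraries that do not overlap in either direction were found for 48.4% of genes tested in old against young and for 15.5% in treated against untreated old.

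The old against young values depend on the scale more than the treated against untreated ones. With library totals alone in place of TMM scaling, 9 of the 10 were lower in old, with a median of -0.20, and 4 were lower in treated old than in young. The TMM factors were 1.0379 to 1.0493 in young and 0.97033 to 0.99772 in old and treated old libraries. Leaving them out therefore moves all genes, and not only the 10, towards lower against young. The counts of this paragraph are given without the shares of all genes called under each setting. The members have low GC content, from 31.86% in ATP8 to 41.08% in ND4L. Among nuclear genes within this span the median log2 difference of old against young was -0.09 over all 1511 tested and 0.06 over the 841 at 10 CPM or more. Removing a GC trend fitted over all genes tested, chosen after seeing the data, reversed the direction, with 8 of the 10 higher in old, none lower and a median of 0.31. Removing the trend fitted over genes at 10 CPM or more gave 9 lower, none higher and a median of -0.18. Without young replicate 2, young replicate 3 or old replicate 3, 2 of the 10 were lower in old in place of 4, and without young replicate 1, 5 were.

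As a share of all counts, the 10 transcripts held 5.62%, 6.17% and 6.07% in young, 5.37%, 5.59% and 5.40% in old and 5.66%, 5.40% and 5.72% in treated old libraries. Old libraries lay below young ones, and treated ones overlapped with both. When immunoglobulin, haemoglobin and granule protein genes were left out of the total, the shares were 5.84% to 6.38% in young and 5.66% to 5.87% in old, and these overlapped. A share over genes chosen with results known has no test here.

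Within the counts of the 10 transcripts, the proportions of some lay apart between groups and those of others overlapped. COX1 made up 27.3%, 28.0% and 27.5% of these counts in young, 29.7%, 29.8% and 29.3% in old and 28.7%, 28.2% and 28.9% in treated old libraries, so that the 3 groups were separate, with treated old between the others. CYTB made up 12.96%, 13.13% and 12.99% in young, 11.94%, 12.22% and 11.95% in old and 11.87%, 11.62% and 11.87% in treated old libraries, with no overlap between groups and treated old lowest. ND4 went from 2.30% ± 0.0659 in young (SD, n = 3) to 2.11% ± 0.0502 in old and 2.11% ± 0.0363 in treated old. ATP6 and COX2 overlapped between all groups, and ND1, ND2, COX3 and ND4L overlapped between young and old. By complex, the complex IV messengers made up 58.6% ± 0.699 of the counts in young, 60.7% ± 0.673 in old and 60.7% ± 0.275 in treated old, and the old and treated libraries lay above the young. These proportions are free of library scaling, but a larger share of 1 transcript lowers those of the others.

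Across the 9 libraries, the nuclear genes whose log2 CPM followed the mean log2 CPM of the 10 most closely were Tbca, a tubulin-folding cofactor (Pearson r = 0.972), Cebpzos (0.954), Apoo, a component of the mitochondrial cristae complex (0.937), Tardbp, an RNA-binding protein (0.935), Polr2k, a subunit shared by the nuclear RNA polymerases (0.935), and C87436 (0.923). They are the highest of 7711 genes at 10 CPM or more, and all values share library and scaling, so they are a description. Tbca was at 84.0 ± 5.45 CPM in young (SD, n = 3), 72.3 ± 1.21 in old and 84.5 ± 1.39 in treated old libraries.

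Among the nuclear genes that keep, read and process the mitochondrial genome, calls went in both directions with age. Over all genes tested, 19.6% were higher and 19.8% lower in old, so such calls are not particular to these lists. None of these nuclear genes was called in treated against untreated old, where 1.2% of all genes tested were. Some alternatives there called 1 gene of RNA stability higher. Several of their counts depend on the scaling, and the values with library totals alone are given beside them. Among 20 tested genes of mitochondrial DNA replication and maintenance, 5 were higher and 4 lower in old. Suclg1 and Sucla2, subunits of succinyl-CoA synthetase linked to the mitochondrial nucleotide supply, rose by 0.26 ± 0.041 and 0.27 ± 0.055 on the log2 scale (adjusted p = 5.05e-05 and 0.000601). Slc25a4, the ADP/ATP carrier, fell by 0.23 ± 0.049 and Dguok, which phosphorylates deoxyguanosine in mitochondria, fell by 0.28 ± 0.065 (adjusted p = 0.000859 and 0.00169). The list's median difference was 0.06. The 5 higher became 3 with library totals alone, as they did without young replicate 3 or old replicate 1, and the 4 lower became 2 without either of these or young replicate 2.

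Of 11 tested genes of mitochondrial transcription, 1 was lower in old and none higher. This was Mterf3, of the transcription termination factor family, at 72.5 ± 5.90 CPM in young and 62.3 ± 3.83 in old (SD, n = 3), with a log2 difference of -0.22 ± 0.063 (adjusted p = 0.00991), which was lost without young replicate 2 (-0.15), old replicate 1 (-0.19) or old replicate 3 (-0.17). Without young replicate 1, 2 genes of the list were lower, and without old replicate 2, 1 was higher. Tfam, which packages mitochondrial DNA and opens its promoters, was at 59.6 ± 8.77 CPM in young, 54.8 ± 5.08 in old and 52.8 ± 2.40 in treated old, and neither of its differences passed (adjusted p = 0.287 and 0.932). Mrpl12, a ribosomal protein, gave -0.11 (adjusted p = 0.137) and Mterf4 0.16 (adjusted p = 0.213) for old against young.

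Among 30 genes of mitochondrial RNA processing and modification, 9 were higher and 3 lower in old. Cdk5rap1, which modifies mitochondrial transfer RNAs, rose from 11.4 ± 2.58 to 21.01 ± 0.727 CPM (log2 difference 0.88 ± 0.11, adjusted p = 3.12e-06). Nsun3, a transfer RNA methyltransferase, rose by 0.39 ± 0.098 (adjusted p = 0.00372). Trit1, a transfer RNA isopentenyltransferase, and Nsun4, a ribosomal RNA methyltransferase, fell by 0.45 ± 0.12 and 0.33 ± 0.090 (adjusted p = 0.0045 and 0.00682). The 9 higher became 3 with library totals alone, 5 with the stricter filter and 2 with the length trend of genes at 10 CPM or more removed.

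Of 17 genes of mitochondrial RNA stability and decay, 6 were higher and 1 lower in old, with a median of 0.12, and with library totals alone 3 were higher and 2 lower. Tbrg4, Fastkd2 and Fastkd3, all of the FASTK family of mitochondrial RNA-binding proteins, rose by 0.42 ± 0.062, 0.26 ± 0.063 and 0.26 ± 0.070 (adjusted p = 1.7e-05, 0.00228 and 0.00567). Grsf1, an RNA-binding protein of mitochondrial RNA granules, rose by 0.24 ± 0.064 (adjusted p = 0.00548), and was not called with library totals alone (adjusted p = 0.0599). The 1 that fell was Slirp, named after its value was seen, the partner of Lrpprc in keeping mitochondrial messengers stable, by 0.19 (adjusted p = 0.00953), and without young replicate 3 or old replicate 2 none of the list was lower. The list of 20 translation factors also holds Cox18, which is not itself one. Of these 20 genes, 5 were higher and 1 lower, or 3 and 3 with library totals alone. Those higher included Gfm1, a mitochondrial elongation factor, up by 0.46 ± 0.053 (adjusted p = 6.16e-07), Cox18 by 0.34 ± 0.064 (adjusted p = 0.00032) and Mtrf1 by 0.32 ± 0.085 (adjusted p = 0.0056). Mrrf, the ribosome recycling factor, fell by 0.23 ± 0.062 (adjusted p = 0.00631), and without old replicate 1, 2 of the list were lower.

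The nuclear-encoded subunits of the same complexes were split in old HSCs and partly higher in treated old HSCs. In old against young, complex I had 5 of 36 higher and 10 lower, complex III 4 of 9 higher and 3 lower, complex IV 0 of 11 higher and 4 lower, and complex V 2 of 16 higher and 5 lower. The shares over all genes tested were 19.6% higher and 19.8% lower. With library totals alone complex I had 3 higher and 21 lower and complex V 9 lower, and the complex I genes lower numbered 18 with the stricter filter, 6 with no filter and 5 with DESeq2. Among the genes named by smallest p, Ndufa9, Ndufs1 and Ndufv1 of complex I rose by 0.28 ± 0.050, 0.28 ± 0.050 and 0.24 ± 0.053 (adjusted p = 0.000128, 0.000151 and 0.00114). Uqcrc2, Uqcrfs1 and Uqcrc1 of complex III rose by 0.26 ± 0.042, 0.23 ± 0.042 and 0.27 ± 0.052, and Atp5a1 and Atp5b, the catalytic head of the ATP synthase, by 0.34 ± 0.041 and 0.26 ± 0.038. Others of the genes named by smallest p were lower. Uqcrq fell by 0.28 ± 0.051, Atp5e by 0.28 ± 0.053, the ATP synthase inhibitor Atpif1 by 0.27 ± 0.043, Ndufa1 by 0.22 ± 0.059, Cox8a by 0.20 ± 0.053, Cox7b by 0.18 ± 0.053, Ndufa4 by 0.17 ± 0.056 and Cox6c by 0.14 ± 0.048. Old replicate 2 weighed most on these falls, since without it none of complex I was lower, 1 of complex III, 1 of complex IV and 2 of complex V, and Ndufa1, Cox7b, Ndufa4 and Cox6c lost their calls. Without young replicate 3 the lower counts were 4 for complex I, 2 for complex IV and 2 for complex V, and Ndufa4 and Cox6c were lost, and without old replicate 1 complex I had 6. Cox6c was also lost without young replicate 2 or old replicate 1, and complex III had 1 lower without young replicate 1. With DESeq2 the calls of Ndufa4 and Cox6c were lost. The 11 nuclear subunit genes that rose had longest transcripts of 1363 to 2674 bases, with a median of 1916 and 0 under 700. The 22 that fell had 419 to 4371, with a median of 1030 and 5 under 700. The 39 not called had 565 to 6310, with a median of 908, and the median of all 72 was 1030. By median the genes that fell were shorter than those that rose and not shorter than those not called. The part of length in these calls was not tested.

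In treated against untreated old, 4 of 36 nuclear subunits of complex I, 1 of 9 of complex III, 4 of 11 of complex IV and 4 of 16 of complex V were higher, and none was lower. The shares over all genes tested were 0.773% higher and 0.429% lower. Among the 1404 genes at or above the level of the lowest of the 10 transcripts they were 5.13% and 1.07%. Complex I had 9 higher with no filter and 2 with the stricter filter, complex III 3 with no filter, and complex IV 2 with each other scaling, the stricter filter or truncated values, under which Cox6c lost its call (adjusted p from 0.0563 to 0.059). Beside ATP8 and ND4L, the subunits called higher included Ndufa4 (0.31 ± 0.057, adjusted p = 0.00517), Cox7b (0.29 ± 0.053, adjusted p = 0.00598), Atp5e (0.28 ± 0.053, adjusted p = 0.00656), Ndufa1 (0.26 ± 0.059, adjusted p = 0.0271) and Cox6c (0.20 ± 0.048, adjusted p = 0.0454). The others, named after their values were seen, were Atp5md, Atp5k, Atp5j, Ndufb2, Ndufc1, Ndufv3, Cox7a2 and Uqcrb, with log2 differences between 0.20 and 0.41. The counts fell when single libraries were left out. Without treated replicate 2 none of the 13 subunits was called, and without treated replicate 1 only 1 of complex V was. Without old replicate 1 or old replicate 2 none of complex I or III and 2 of complex IV were. Without treated replicate 3 none of complex III and 2 of complex IV were called. Over all genes tested, leaving out 1 library gave 17 to 121 called higher, against 110 with all 9 libraries. The part of this general change in the losses was not tested. The 13 genes had longest transcripts of 419 to 4371 bases (median 1232) and the 59 others 510 to 6310 (median 1014), and 4 of the 13 and 10 of the 59 were under 700 bases. With the length trend of genes at 10 CPM or more removed, 3 of complex I, none of complex III, 3 of complex IV and 3 of complex V were called.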

How the data were processed

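The table, as deposited by the authors, holds expected counts (estimated counts that need not be whole) for 9 libraries: 56.04% of non-zero values were whole. The step that made the others fractional is unknown. Tools named in the submitters' processing notes, without role or order, were STAR 2.6.1d, edgeR 3.24.3, HTSeq 0.10.0 and Trim Galore 0.6.2, with the build mm10. Values were rounded and tested with edgeR 4.0.16 (R 4.3.3) by its quasi-likelihood test after TMM scaling and its filter by group (14227 genes). All 9 libraries entered 1 model, so that the 3 comparisons share 1 estimate of spread. P-values were adjusted by Benjamini-Hochberg over all genes tested, with a threshold of 0.05. Levels are CPM, and SDs are over 3 libraries. The scripts were tested on simulated data. Reads amplified by 12 PCR cycles without molecular identifiers are not independent molecules.

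The transcripts and gene lists were chosen with earlier results of these data known. Every one of the 10 transcripts is named. Of each other list up to 4 genes of smallest p in old against young are named, as are the closest nuclear copies by shared 31-base words and the 6 genes at 10 CPM or more, not named as predicted genes, with the highest correlation over 9 libraries. Coordinates and sequences are from GENCODE mouse release 21, to which 23289 of 23317 rows were matched.

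Alternatives were RLE size factors, library totals alone, scaling without mitochondrial genes, no filter, a stricter one (5 CPM or more in 3 or more libraries), DESeq2 1.42.0, truncated values, the 2 groups alone, a replicate block, leaving out each library, and a share total without immunoglobulin, haemoglobin and granule protein genes. Removing length and GC trends was chosen after seeing the data. A marker result of another cell type is not reported here.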

Additional observations from a re-analysis of the deposited data

How the results depend on the processing

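The values below are log2 differences, or counts of the 10 transcripts called. Values are given for changes of sign and for counts that moved; where no value shows the cause, the cause was not tested. For old against young, library totals alone gave 9 lower, a median of -0.20 and COX1 at -0.026. No filter gave 1 higher (COX1), with COX2 at 0.015, ND1 at 0.022 and COX3 at 0.0038. The stricter filter, which tests fewer genes, gave 7 lower, and DESeq2 gave COX2 0.0021 and ND1 0.0091. The lower count was 3, with ND2 lost, under RLE size factors, scaling without mitochondrial genes, truncated values, no filter, the 2 groups alone and DESeq2 (adjusted p of ND2 from 0.0592 to 0.138). Removing the length trend over all genes tested gave 1 higher (COX1) and ND5 at 0.087, with 5 lower (COX2, ATP6, ATP8, COX3 and ND4L), while CYTB, ND4 and ND2 lost their calls (adjusted p = 0.0987, 0.512 and 0.0804). Removing that of genes at 10 CPM or more gave 3 lower, a median of -0.028, COX1 at -0.025, COX2 at 0.045, COX3 at 0.0018, ND4L at 0.043, ND3 at 0.039 and ND6 at 0.070. Removing the GC trend over all genes tested gave 8 higher, 0 lower and a median of 0.31, with COX2 at 0.33, ND1 0.38, ATP6 0.36, ATP8 0.14, ND4 0.29, CYTB 0.18, COX3 0.31, ND2 0.31, ND4L 0.13, ND3 0.33, ND6 0.39, ND5 0.38, Cox7b 0.038 and Ndufa4 0.11, while that of genes at 10 CPM or more gave 9 lower. Leaving out 1 library gave 2 to 5 lower, ND1 from -0.044 to 0.0054 and ND5 from -0.11 to 0.015.

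For treated against untreated old, COX1 was -0.0040 with RLE size factors, -0.013 with library totals, -0.0012 with scaling without mitochondrial genes, -0.0096 with the stricter filter, -8e-04 with values truncated, -0.0036 with DESeq2 and -0.015 with the length trend over all genes removed. No filter, the 2 groups alone and DESeq2 gave 3 higher, with COX3 added (adjusted p = 0.0146, 0.0274 and 0.0409). Library totals gave ND3 -0.0021 and that length trend gave CYTB -5e-04. Removing the length trend of genes at 10 CPM or more gave 0 higher, a median of 0.0031, COX2 at -0.071, ATP6 at -0.095, CYTB at -0.0097, ND2 at -0.0093, ND3 at -0.23 and ND6 at -0.15. Leaving out 1 library gave 1 to 2 higher, ND2 from -0.017 to 0.069, ND3 from -0.056 to 0.065, COX1 from -0.022 to 0.035 and CYTB from -0.0035 to 0.055. ATP8 was above 0 in 19 of 19 alternatives and past the threshold in 18, and ND4L in 19 and 15.

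For treated old against young, RLE size factors gave 1 higher (COX3) and ND6 at 0.0012. Library totals gave 4 lower, a median of -0.060, COX2 at -0.063, ND1 at -0.057, COX1 at -0.039 and COX3 at -0.026. No filter gave 6 higher and ND6 at 0.040, the stricter filter 3 lower with COX2 at -0.020 and ND1 at -0.014, the 2 groups alone 2 higher, and DESeq2 1 higher, 0 lower and ND6 at 0.017. Removing the length trend over all genes gave 1 higher, 5 lower and a median of -0.13, with COX2 at -0.28, ND1 -0.019, ATP8 -0.58, COX3 -0.13, ND4L -0.59 and ND5 0.044. Removing the GC trend over all genes gave 10 higher, 0 lower and a median of 0.41, with ATP6 at 0.42, ND4 0.36, CYTB 0.23, ND2 0.37, ND3 0.36, ND6 0.48 and ND5 0.36. The trends of genes at 10 CPM or more gave 3 lower with COX2 at -0.026, ND1 -0.021 and COX1 -0.020 for length, and 4 lower with COX2 at -0.016 and ND1 -0.017 for GC. Leaving out 1 library gave 0 to 1 higher, 0 to 4 lower and ND6 from -0.10 to 0.051.

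With the replicate number as a block, 4 were lower in old than in young, 2 higher in treated than in untreated old and 1 lower in treated old than in young, as without it. Deviations of same-numbered libraries correlated between -0.15 and 0.18 (9 pairs) and those of other pairs between -0.17 and 0.15 (18 pairs), so the numbers were not taken to pair the samples. Without immunoglobulin, haemoglobin and granule protein genes in the total, the share of the 10 was 5.74% in old and 5.87% in treated old. Over settings other than leaving out a library, the nuclear lists for old against young ranged from 2 to 14 higher and 1 to 4 lower (RNA processing), 3 to 11 and 0 to 2 (RNA stability), 3 to 9 and 1 to 4 (translation factors), 3 to 9 and 1 to 5 (DNA maintenance), 0 to 1 and 0 to 3 (transcription), and for the nuclear subunits 3 to 8 and 3 to 23 (complex I), 3 to 5 and 1 to 5 (III), 0 to 2 and 1 to 8 (IV) and 2 to 6 and 3 to 9 (V). Adding the counts of nuclear copies was not run, for the 10 or for their share, because none of those copies has a row in the table used here.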
